A study of Mus musculus with 23 samples.

Results

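The replication-dependent histone cluster genes of mouse were followed through single-cell gene expression libraries of blood stem and progenitor cells. Members were all gene rows whose symbol starts with Hist1h, Hist2h, Hist3h or Hist4h, 67 of the 32285 genes listed in each matrix. By type they were 6 linker H1 genes, 18 H2A, 18 H2B, 12 H3 and 13 H4 genes. The Hist1 cluster on chromosome 13 held 54 of them, the Hist2 cluster on chromosome 3 held 10, the Hist3 cluster on chromosome 11 held 2, and Hist4h4 stood alone on chromosome 6. The study compared loss of Jarid2, a co-factor of Polycomb repressive complex 2 (PRC2), with loss of Ezh2, the catalytic subunit of that complex. All groups are labelled Mx1-Cre, a Cre driven by an interferon-inducible promoter that is active in blood cells and also in other tissues, and the knockout models carried floxed alleles, Jarid2fl/fl (Jarid2 KO) or Ezh2fl/fl (Ezh2 KO). The sources used here do not say whether Control animals carried floxed alleles. The baseline experiment had 1 male (replicate 1) and 1 female (replicate 2) library for every genotype (Control, Ezh2 KO, Jarid2 KO), from untransplanted mice 2 months old. The transplant experiment had 1 Control, 2 Ezh2 KO and 2 Jarid2 KO libraries of CD45.2 donor cells, taken 18 weeks after 500000 donor and 500000 CD45.1 competitor cells were given to lethally irradiated recipients, and the sexes are not given. All 11 libraries held sorted KSL cells (c-Kit+ Sca1+ Lineage-), a fraction of bone marrow rich in stem and multipotent progenitor cells. The labels do not say that libraries of 1 transplant genotype came from separate animals, so p-values measure only the spread between these samples. The 6 antibody libraries and 6 CUT&Tag samples were not used here.

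Replication-dependent histone genes supply the histones that package newly copied DNA, and they are transcribed mainly while a cell is in S phase. They lie in tight clusters of near-identical copies, and their mRNAs usually end in a stem-loop bound by the stem-loop binding protein instead of a poly(A) tail, although some also make polyadenylated transcripts. The libraries were single-cell 3′ tag libraries, in which transcripts are captured through poly(A), so a level counts only what such priming captured, and reads of near-identical copies may be divided uncertainly between genes.

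Each library held 4354 to 9208 kept cells and 67533820 to 126346471 UMIs (unique molecular identifiers, 1 per captured RNA molecule). Ezh2 stood at 209 and 193 CPM (UMIs per 1000000 UMIs of the library) in baseline Control against 163 and 148 in baseline Ezh2 KO, and at 184 in transplant Control against 38.9 and 47.1 in transplant Ezh2 KO. The log2 change of Ezh2 was -0.33 at baseline, which did not pass the test used below (edgeR adjusted p 0.0599), and -2.18 after transplantation. Jarid2 RNA was not lower in the libraries labelled Jarid2 KO, at 215 and 204 CPM against 159 and 150.0 in baseline Control, and tags outside the deleted part of a gene check nothing. The sort markers were detected in every library, Kit at 125 to 295 CPM and Ly6a, which encodes Sca1, at 19.2 to 74.1 CPM. Cells with 2 or more UMIs of 8 B-lineage markers made up 38.9% and 21.0% of the baseline Ezh2 KO libraries, against 7.76% to 16.2% of the other baseline libraries. They made up 32.4% and 25.2% of the transplant Ezh2 KO libraries, against 14.1% to 23.1% of the other transplant libraries. Cells with Xist and without Y-linked UMIs made up 59.5% of the transplant Control library and 48.3% and 49.9% of the Jarid2 KO libraries, but 0.0163% and 0.0511% of the Ezh2 KO libraries. Any 2 libraries shared 9 to 39 of their cell barcodes.

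The sequences upstream of the start sites are shown first for the 5 genes on which the results turn. Hist3h2ba rose in Ezh2 KO in both experiments and Hist1h2bl at baseline, and Hist3h2a is the neighbour of Hist3h2ba. By mean level over the 11 libraries Hist1h1b is the most abundant member and Hist1h4d the most abundant H4 gene. Each sequence is the 250 bases before the annotated start, from RefSeq (GRCm38.p6), written 5′ to 3′ on the strand of the gene. Capitals mark matches to TATAA (the TATA box letters), CCAAT, the octamer ATTTGCAT and AAACACA (letters described in H1 promoters), searched on both strands, so the reverse complement of each counts as well. Matches to TATAA on opposite strands can overlap each other.
Hist3h2ba: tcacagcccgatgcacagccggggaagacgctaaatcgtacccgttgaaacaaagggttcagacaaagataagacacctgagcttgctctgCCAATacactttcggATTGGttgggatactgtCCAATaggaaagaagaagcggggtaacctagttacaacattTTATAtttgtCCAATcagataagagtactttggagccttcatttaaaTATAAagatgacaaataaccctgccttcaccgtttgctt
Hist3h2a: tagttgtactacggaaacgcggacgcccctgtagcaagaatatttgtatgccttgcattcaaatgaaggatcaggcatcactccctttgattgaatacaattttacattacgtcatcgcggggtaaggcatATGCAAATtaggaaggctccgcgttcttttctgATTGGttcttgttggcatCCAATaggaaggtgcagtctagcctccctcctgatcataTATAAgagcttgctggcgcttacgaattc
Hist1h2bl: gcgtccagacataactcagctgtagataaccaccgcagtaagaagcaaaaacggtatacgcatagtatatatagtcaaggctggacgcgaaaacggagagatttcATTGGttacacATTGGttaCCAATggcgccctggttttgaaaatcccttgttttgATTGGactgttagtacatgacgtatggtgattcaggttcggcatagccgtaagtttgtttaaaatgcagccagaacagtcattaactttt
Hist1h1b: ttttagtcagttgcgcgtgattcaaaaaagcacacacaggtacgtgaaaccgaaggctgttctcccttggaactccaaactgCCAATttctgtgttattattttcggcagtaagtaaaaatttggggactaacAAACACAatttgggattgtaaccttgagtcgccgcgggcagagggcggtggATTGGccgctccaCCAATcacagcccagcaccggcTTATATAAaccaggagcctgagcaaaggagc
Hist1h4d: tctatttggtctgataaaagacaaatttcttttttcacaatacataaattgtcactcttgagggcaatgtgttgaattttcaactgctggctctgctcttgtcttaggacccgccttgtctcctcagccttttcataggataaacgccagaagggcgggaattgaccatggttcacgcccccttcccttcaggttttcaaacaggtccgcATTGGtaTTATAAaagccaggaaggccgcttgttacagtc
The windows are chr11:58948661-58948910 on the plus strand for Hist3h2ba, chr11:58954435-58954684 on the plus strand for Hist3h2a, chr13:21716184-21716433 on the minus strand for Hist1h2bl, chr13:21780626-21780875 on the minus strand for Hist1h1b and chr13:23581318-23581567 on the plus strand for Hist1h4d. Hist3h2a held the octamer in these bases and the upstream window of Hist3h2ba did not. Hist1h2bl held 4 CCAAT matches and no TATAA, and Hist1h1b was the one of the 5 with AAACACA. The Hist1h2bl bases take in the whole gap of 228 bases to Hist1h2ai, an H2A gene on the opposite strand. The 4 CCAAT matches lie in that gap, and so upstream of both genes.

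All 67 members matched a RefSeq gene, and 62 had a promoter window of 250 bases before to 50 bases after the start. TATAA was found in 49 of the 62 (79.0%), against 25.5% of all 27025 windows of that length. CCAAT was found in 53 of the 62 (85.5%), against 37.9% of all windows, and it divided the types: every H1, H2A, H2B and H3 window held it, but 3 of 12 H4 windows. The octamer was found in 7 of 18 H2A and 6 of 16 H2B windows and in 0 windows of the other types, against 1.75% of all windows. AAACACA was found in 5 of 6 H1 windows, 2 H2A windows and 2 H2B windows, against 7.14% of all windows. Windows of neighbouring H2A and H2B genes on opposite strands can overlap, so that 1 stretch of letters counts under both types. An example with the octamer is Hist1h2ah (chr13:22035594-22035893) with Hist1h2bk (chr13:22035571-22035870). A match describes letters and is not a bound site.

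Summed over the 67 members, the family took 0.244% to 0.641% of all UMIs of a library. At baseline the summed level was 4739.6 and 3445 CPM in Control, 6413 and 4911 in Ezh2 KO, then 4915 and 4049 in Jarid2 KO. Both Ezh2 KO libraries lay above both Control libraries, and the Jarid2 KO libraries overlapped Control. After transplantation it was 3421 CPM in Control, 5841 and 3794 in Ezh2 KO, then 2890.3 and 2438 in Jarid2 KO. A single H2A gene, Hist1h2ap, gave 38.4% of the family's UMIs in the first of those Ezh2 KO libraries. Without it the transplant levels were 2911 CPM in Control, 3598 and 3459 in Ezh2 KO, then 2645 and 2066 in Jarid2 KO, so that the Ezh2 KO libraries still lay highest. Levels count 1 tag per molecule and are not divided by gene length. In sums over the cells of a library, a change in the share of cells and a change in the level per cell cannot be told apart.

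**Figure D1:**
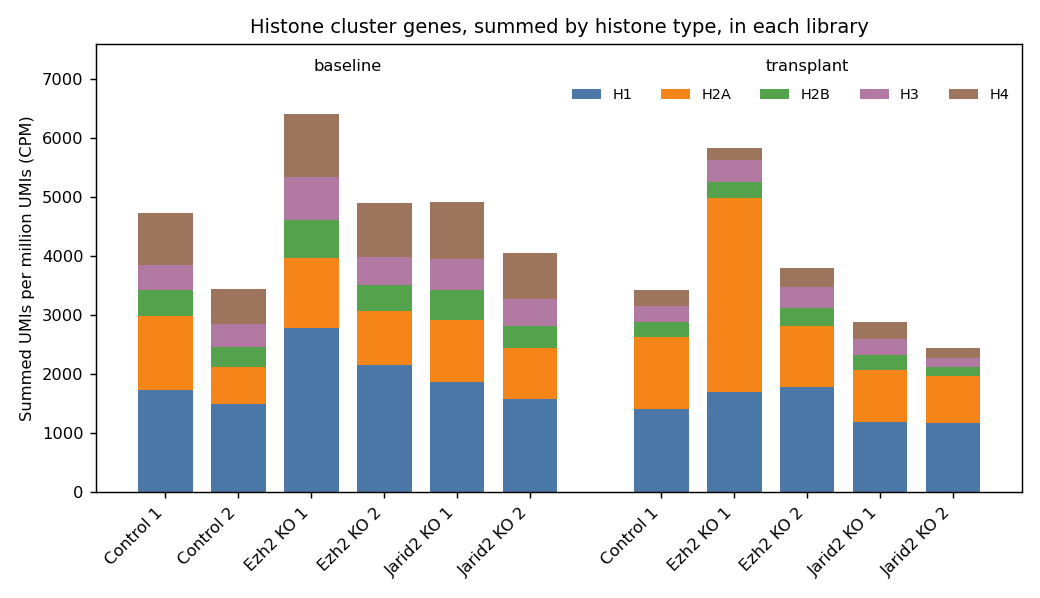
Summed level of the histone cluster genes in each of the 11 libraries (CPM), stacked by histone type. The highest baseline library is Ezh2 KO 1 at 6413 CPM, and the large H2A segment of transplant Ezh2 KO 1 (3288 CPM) is mostly Hist1h2ap.

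The linker H1 genes, whose proteins bind the DNA between nucleosomes, included the 2 members with the highest mean levels. Hist1h1b led with a mean of 797 CPM over the 11 libraries (598 to 1210.3), and Hist1h1e followed with 530.2 CPM (242 to 935). The order differed in single libraries. In baseline Control 1 the H4 gene Hist1h4d (642 CPM) stood above Hist1h1e (613). In transplant Ezh2 KO 1 the H2A gene Hist1h2ap (2243) stood above Hist1h1b (985). Hist1h1c, Hist1h1a and Hist1h1d had means of 141, 125 and 123 CPM and were also among the 10 most abundant. Hist1h1t, the testis linker histone, stood at 0.0592 to 0.348 CPM, where a count of 0 would allow up to 0.0237 to 0.0444 CPM (3 counts, counting error only). Summed H1 RNA was 1736 and 1490.2 CPM in baseline Control, 2789 and 2150.1 in Ezh2 KO, then 1864 and 1587 in Jarid2 KO. After transplantation it was 1416 CPM in Control, 1703 and 1774 in Ezh2 KO, then 1196 and 1177 in Jarid2 KO. The Ezh2 KO libraries had the highest H1 sums of each experiment.

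Core histone RNA was uneven between copies. Among H2A genes Hist1h2ap (mean 422 CPM), Hist1h2ae (307) and Hist1h2ab (129.7) were among the 10 most abundant members. Hist1h2ap stood at 369 and 56.4 CPM in baseline Control, 97.6 and 142 in Ezh2 KO, then 149 and 126 in Jarid2 KO, and at 509.5 in transplant Control, 2243 and 335 in Ezh2 KO, then 245 and 372 in Jarid2 KO. The genotypes overlapped, except that both transplant Jarid2 KO libraries lay below the transplant Control, and the highest library was 39.7 times the lowest. Hist1h4d, an H4 gene, stood at 642 and 448 CPM in baseline Control, 861 and 725 in Ezh2 KO, then 727 and 599.6 in Jarid2 KO, and at 115, then 50.2 and 140.5, then 155 and 51.8 in the transplant libraries of the same order. Every transplant value of Hist1h4d lay below every baseline value. The experiments also differ in software version, animals and time, and these cannot be told apart. Hist1h3c, an H3 gene, had a mean of 152 CPM. The 4 members with the fewest UMIs were Hist1h2aa, Hist1h2ba, Hist2h2aa2 and Hist1h2bq, with 0, 2, 7 and 9 UMIs in all libraries together. They fell under the filter on low counts, so that 63 of the 67 members were tested for genotype.

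Cells were assigned to cell cycle phases from 39 S-phase and 53 G2/M-phase genes, none of them a histone cluster gene, and members were compared between phases within libraries. At baseline 56 of 63 tested members were higher in S than in G1 cells (37.5% of all 15866 genes tested were higher) and 4 were lower (39.1% of all genes were lower), with a median log2 change of 2.31. All 63 were higher in G2/M than in G1 cells (38.3% of all genes were higher), with a median of 3.96. The median was thus larger for G2/M than for S cells, although these genes are transcribed mainly in S phase. Here and below, S, G2/M and G1 name classes of RNA scores, and DNA content was not measured. Whether cells that were copying DNA fell in the G2/M class was not tested. By type the median S changes were 2.29 for H1, 2.67 for H2A, 2.55 for H2B, 1.89 for H3 and 1.18 for H4 genes. The test was edgeR's quasi-likelihood test with library as a term, Benjamini-Hochberg adjustment over all genes and a false discovery rate of 0.05. Scaling to total UMIs moved the median of all genes by -0.16 in S and -0.20 in G2/M and left 60 and 63 members called. Cells differed in depth, with medians of 9317.5 to 10766.5 UMIs per library in G1, 15016 to 18092 in S and 18702 to 21669 in G2/M cells, and phases were assigned on cells thinned to 5000 UMIs. Cell type markers moved with phase as well. B-lineage markers were higher in S cells in 7 of 8 and in G2/M cells in 8 of 8, erythroid markers in 4 of 5 and 5 of 5, and myeloid markers in 4 of 4 and 3 of 4. Stem cell markers were lower in 5 of 6 and 6 of 6, and both sort markers were lower in both phases. Their part in the steps was not tested, nor was that of free RNA in the droplets.

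The steepest S-phase members were H3, H2A and H1 genes. Hist1h3b ran from a median of 0.388 CPM in G1 cells (0.312 to 1.06 over the 6 libraries) through 19.3 in S (14.7 to 26.3) to 88.1 in G2/M cells (65.6 to 106). Its S change was 5.44 ± 0.11 (log2 ± SE). Hist1h2af (5.43 ± 0.08), Hist1h3c (5.12 ± 0.11), Hist1h2ah (4.93 ± 0.15) and Hist1h1b (4.79 ± 0.09) followed. In Hist1h1b the phases did not overlap, at 19.2 to 45 CPM in G1, 547 to 1007 in S and 1819.6 to 2963 in G2/M cells.

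The linker genes differed in their S-phase step. Hist1h1a (3.29 ± 0.09), Hist1h1d (1.29 ± 0.06) and Hist1h1e (0.64 ± 0.05) rose, as did Hist1h1t (3.99 ± 0.64), while Hist1h1c stood at 0.08 ± 0.04 with an edgeR adjusted p of 0.0997. In G1 cells the median level was 311 CPM for Hist1h1e, 103 for Hist1h1c and 25.9 for Hist1h1b. In S cells it was 446, 96.8 and 598 CPM, so that Hist1h1b lay below both of the others in G1 and above both in S cells. All 6 linker genes rose in G2/M cells.

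A small set ran the other way in cells of the S class. Hist3h2a fell by 1.41 ± 0.06 on the log2 scale, from a median of 22.0 CPM in G1 to 7.74 in S cells, and stood at 27.2 in G2/M cells. Its neighbour Hist3h2ba fell by 1.24 ± 0.18 (9.03, 2.69 and 19.4 CPM in G1, S and G2/M cells). Hist1h2bc fell by 0.87 ± 0.06 (73.4, 34.7 and 146 CPM). Hist2h2be fell by 0.30 ± 0.11 with an edgeR adjusted p of 0.0266. Hist1h2ac, which lies head to head with Hist1h2bc, stood at 0.03 ± 0.09 and did not pass the test. The 5 tested members that span over 1000 bases in RefSeq had a median S change of 0.78, against 2.36 for the 58 shorter ones.

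After transplantation the steps were smaller. Of 61 tested members 45 were higher in S than in G1 cells (36.6% of all 13459 genes tested were higher) and 8 were lower (37% of all genes were lower), with a median of 0.86. In G2/M cells 58 were higher (36.6% of all genes) and 1, Hist1h2ac, was lower (37.1% of all genes), with a median of 2.18. Scaling to total UMIs moved the median of all genes by -0.14 in S and -0.13 in G2/M. The 5 lowest S changes were those of Hist3h2ba (-1.58 ± 0.14), Hist3h2a (-1.42 ± 0.10), Hist1h2ac (-1.36 ± 0.07), Hist1h2bc (-1.26 ± 0.05) and Hist4h4 (-0.84 ± 0.10). The 5 highest were those of Hist1h3b (2.61 ± 0.10), Hist1h2af (2.42 ± 0.15), Hist1h1b (2.36 ± 0.08), Hist1h2an (2.33 ± 0.13) and Hist1h2ah (2.31 ± 0.59). The G1 class held 24.9% to 33.8% of scored cells here, against 52.8% to 62.1% at baseline. Scores within 0.05 of a phase cut were held by 431 of 929 G1 cells in transplant Control. They were held by 785 of 1988 and 743 of 1742 in Ezh2 KO, then 630 of 1408 and 620 of 1360 in Jarid2 KO. In baseline Control they were held by 380 of 3798 and 509 of 4376 G1 cells. The part of these cells in the smaller steps was not tested. B-lineage markers were higher in S cells in 6 of 8 and in G2/M cells in 7 of 8, and myeloid markers in 4 of 4 of both, while stem cell markers were lower in 5 of 6 and the sort markers in 2 of 2 of both. The experiments were scored apart, so the difference between their steps was not tested.

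**Figure D2:**
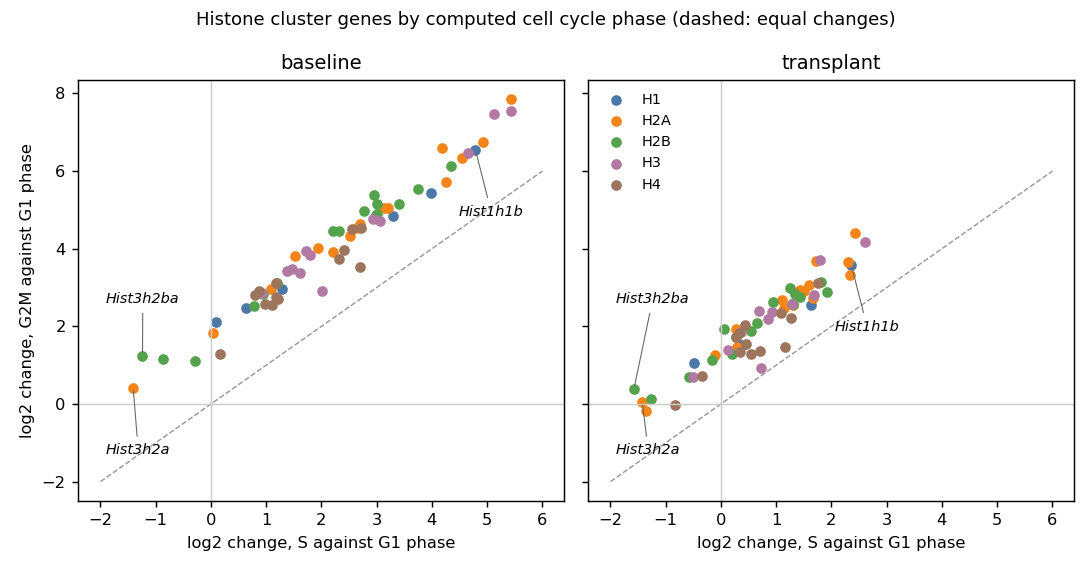
Log2 change of each tested member in S against G1 cells (x axis) and in G2/M against G1 cells (y axis), at baseline (left, 63 members) and after transplantation (right, 61 members), coloured by histone type. Hist3h2a and Hist3h2ba lie left of 0 in both panels, while the baseline members reach an S change of 5.44 in Hist1h3b.

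At baseline, Ezh2 KO libraries held more histone cluster RNA than Control libraries. Of 63 tested members 18 were higher and 0 were lower (2.92% of all 18196 genes tested were higher and 0.692% were lower), by edgeR with sex as a term. The members' median log2 change was 0.47, against 0.00 for all genes, and 58 lay above 0. DESeq2 called 29 higher and 1 lower (7.55% of all genes called). The edgeR calls were 5 of 6 H1 genes, 11 of 16 tested H2B genes and 2 of 13 H4 genes, and 0 of 16 tested H2A and 0 of 12 H3 genes, whose medians were 0.42 and 0.39. In 30 of the 63 both Ezh2 KO libraries lay above both Control libraries, as in 17.3% of all genes tested, and in 0 below them, as in 30.4% of all genes.

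Among linker genes Hist1h1b stood at 688 and 598 CPM in Control against 1210.3 and 925 in Ezh2 KO, a log2 change of 0.77 ± 0.08 with an edgeR adjusted p of 0.0266. Hist1h1e stood at 613 and 535 against 935 and 745 CPM (0.59 ± 0.06), and Hist1h1d at 139 and 122 against 236 and 172 (0.67 ± 0.08). These 3 genes rose with no overlap between the groups. Hist1h1a rose from 122 and 91.2 to 176 and 129 CPM (0.56 ± 0.07) and Hist1h1c from 174 and 143 to 232 and 178 CPM (0.41 ± 0.05), again with no overlap. Hist1h1t stood at 0.92 ± 0.32 with an edgeR adjusted p of 0.172.

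Among H2B genes Hist1h2bl had the largest change, from 4.54 and 4.46 CPM in Control to 21.9 and 15.3 in Ezh2 KO (2.06 ± 0.14, edgeR adjusted p 0.0132). Hist3h2ba rose from 8.73 and 5.57 to 23.5 and 14.7 CPM (1.46 ± 0.08, edgeR adjusted p 0.0111). Hist1h2bp rose from 4.37 and 2.12 to 8.95 and 5.05 CPM (1.18 ± 0.13). The groups did not overlap in these 3 genes. Hist1h2bm rose from 24.5 and 21.0 to 44.2 and 30.4 CPM (0.74 ± 0.09), and Hist1h2bg from 25.5 and 17.6 to 32.7 and 22.7 (0.41 ± 0.05), where the groups overlapped. Every call of this contrast rested on the sex term, since edgeR called 0 of 63 members without it. The leading H4 call was Hist1h4d, from 642 and 448 to 861 and 725 CPM (0.60 ± 0.07).

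Many H2A and H2B genes lie head to head, in 12 pairs with gaps of 163 to 280 bases, and both genes were tested in 10 of them. The H2B value was the higher in 9 of the 10, by a median of 0.24 (log2), and in 6 the H2B gene passed the test and the H2A gene did not. The difference within a pair was not tested. The widest differences were those of Hist1h2bl (2.06 ± 0.14) with Hist1h2ai (0.11 ± 0.26, edgeR adjusted p 0.831), 228 bases apart, and of Hist1h2bp (1.18 ± 0.13) with Hist1h2an (0.56 ± 0.11, edgeR adjusted p 0.0578), 234 bases apart. Others lay close together, such as Hist1h2bn (0.60 ± 0.09) with Hist1h2ak (0.45 ± 0.08), Hist1h2bj (0.48 ± 0.08) with Hist1h2ag (0.32 ± 0.15) and Hist1h2bg (0.41 ± 0.05) with Hist1h2ae (0.25 ± 0.17). Between these were Hist1h2bk (0.74 ± 0.10) with Hist1h2ah (0.42 ± 0.12), Hist1h2bf (0.67 ± 0.09) with Hist1h2ad (0.19 ± 0.11) and Hist1h2br (0.00 ± 0.32) with Hist1h2ap (-0.43 ± 0.78). Hist1h2bc and Hist1h2ac, 239 bases apart, stood at -0.12 ± 0.08 and -0.29 ± 0.07, and neither passed the test. In the remaining pair Hist2h2ac (0.54 ± 0.10) had a higher value than Hist2h2be (0.21 ± 0.10).

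**Figure D3:**
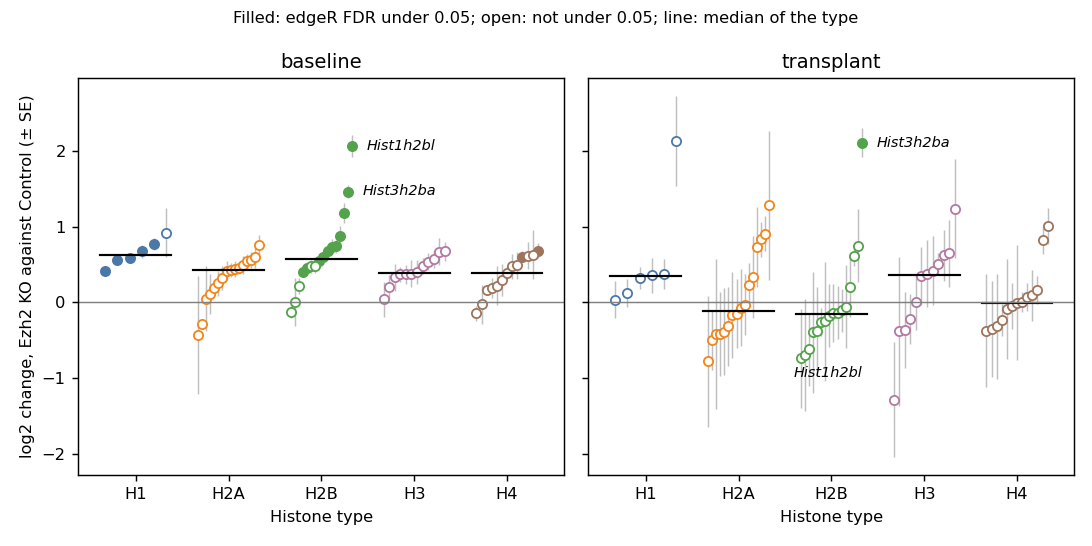
Log2 change of each tested member in Ezh2 KO against Control with its SE, at baseline (left) and after transplantation (right), grouped by histone type, with a black line at the median of each type. Filled points passed the test: 18 at baseline, all above 0 and of types H1, H2B and H4, and 1 after transplantation, Hist3h2ba.

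The number called changed with the sex term, with 1 library and with cells that held B-lineage UMIs. Without the sex term edgeR called 0 of 63 members (25 at an unadjusted p under 0.05), with a median of 0.48, and without the male Ezh2 KO library it called 3. Those fits called 0.137% and 0.529% of all genes. The share of all genes at an unadjusted p under 0.05 is not given for any fit. Counts at that threshold, here and below, are therefore not set against a background. The 8 B-lineage markers moved with the contrast: their summed level was 1025 and 308 CPM in Control, 2949 and 1575 in Ezh2 KO, then 443 and 437 in Jarid2 KO, 3 of the 8 passed the test, and none was at 0 in any library. Of the other lists 2 of 3 mature myeloid markers were higher and 1 of 4 megakaryocyte markers was lower. Without cells that held 2 or more B-lineage UMIs, 2 of 62 tested members were called, both higher (0.472% of all genes were higher), and the members' median was 0.16. They were Hist3h2ba (0.87 ± 0.08, edgeR adjusted p 0.0328) and Hist1h2bl (1.58 ± 0.15, edgeR adjusted p 0.0305). The share of G2/M cells moved too, at 15.6% and 14.5% of scored cells in Control, 22.2% and 18.5% in Ezh2 KO, then 14.3% and 14.9% in Jarid2 KO, and 16 of the 53 G2/M-phase genes were higher in Ezh2 KO than in Control. In G2/M cells alone 10 of 63 tested members were higher (2.87% of all genes were higher), and in G1 cells alone 0 of 60 (0.334% of all genes), with 14 at an unadjusted p under 0.05.

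Within S-phase cells alone 22 of 62 tested members were higher in baseline Ezh2 KO than in Control and 0 were lower (2.41% of all 15505 genes tested were higher and 0.697% were lower), with a median of 0.47. DESeq2 also called 22 (2.59% of all genes). By type they were 5 H1, 10 H2B, 3 H2A, 3 H3 and 1 H4 gene. The 10 with the smallest adjusted p were Hist1h1a (0.62 ± 0.05), Hist1h1b (0.76 ± 0.07), Hist3h2ba (1.84 ± 0.18), Hist1h2bl (1.66 ± 0.16), Hist1h1e (0.64 ± 0.07), Hist1h3f (0.54 ± 0.06), Hist1h4d (0.60 ± 0.07), Hist1h2af (0.74 ± 0.09), Hist1h2bj (0.52 ± 0.07) and Hist1h2bm (0.69 ± 0.09). B-lineage markers differed here as well, with 7 of 8 higher in Ezh2 KO. The S class is a range of scores and does not hold the position of a cell in the cycle fixed. The part of that position in these calls was not tested. Without the male Control library 13 members were called (2.03% of all genes), and without the sex term edgeR called 0 members (25 at an unadjusted p under 0.05) and 0 of all 15505 genes.

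Jarid2 KO against Control at baseline gave 0 calls among 63 tested members by edgeR (0.0275% of all genes were called), and DESeq2 called 3 (1.36% of all genes). An unadjusted edgeR p under 0.05 was found in 23. The share of all genes at that unadjusted threshold is not given, so this count is not set against a background. The members' median was 0.24, against 0.00 for all genes, and 56 lay above 0. In 12 members both Jarid2 KO libraries lay above both Control libraries, as in 15.6% of all genes, and in 0 below them, as in 21% of all genes, so that the first share is near that background. Hist1h1b stood at 659.6 and 619 CPM against 688 and 598 in Control (0.02 ± 0.08), and Hist1h4d at 727 and 599.6 against 642 and 448 (0.32 ± 0.07, edgeR adjusted p 0.264). In S-phase cells alone 0 of 62 members were called (0.0258% of all genes), 29 had an unadjusted p under 0.05 and DESeq2 called 1 (0.497% of all genes). The edgeR count was 21 without the female Ezh2 KO library (3.25% of all genes), 8 without the male one (1.68% of all genes) and 1 without the female Control library (0.164% of all genes). The Ezh2 KO libraries are in neither group of this contrast but enter the shared estimate of the spread and the choice of genes tested.

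Between the knockouts at baseline 7 of 63 tested members were lower in Jarid2 KO than in Ezh2 KO and 0 were higher (4.57% of all genes were lower and 1.58% were higher), with a median of -0.21. They were the H2B genes Hist3h2ba (-1.13 ± 0.08), Hist1h2bl (-1.58 ± 0.14) and Hist1h2bp (-1.04 ± 0.13) and the linkers Hist1h1b (-0.75 ± 0.08), Hist1h1a (-0.45 ± 0.07), Hist1h1e (-0.39 ± 0.06) and Hist1h1c (-0.33 ± 0.05). This comparison shares its Ezh2 KO libraries with that of Ezh2 KO against Control. B-lineage markers moved with it, 7 of 8 lower in Jarid2 KO, while 3 of 6 stem cell markers and 1 of 4 megakaryocyte markers were higher. Without the cells that held B-lineage UMIs 1 of 62 members was called (1.01% of all genes), and Hist1h1a turned direction, at 0.08 ± 0.06. DESeq2 called 14 lower and 1 higher (8.74% of all genes called). The count was 3 without the male and 17 without the female Ezh2 KO library, 1 without the male Jarid2 KO library, 15 and 14 without the male and the female Control library, and 0 without the sex term (5 at an unadjusted p under 0.05 by edgeR), where these fits called 0.445% to 6.76% of all genes. In S-phase cells alone 5 of 62 were lower (3.06% of all genes): Hist3h2ba (-1.9 ± 0.18), Hist1h1b (-0.66 ± 0.07), Hist1h1a (-0.43 ± 0.05), Hist1h2bl (-1.26 ± 0.16) and Hist1h1e (-0.40 ± 0.07). DESeq2 called 7 (3.08% of all genes). B-lineage markers were lower in 8 of 8 in these cells. The edgeR count was 12 and 11 without the male and the female Control library, 19 without the female Ezh2 KO library, and 0 and 1 without the male and the female Jarid2 KO library, where these fits called 0.247% to 10.4% of all genes.

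After transplantation 1 of 63 tested members was higher in Ezh2 KO than in Control and 0 were lower (3.46% of all 15736 genes tested were higher and 1.49% were lower). It was Hist3h2ba, at 2.56 CPM in the Control library against 11.9 and 11.3 in Ezh2 KO (2.10 ± 0.19, edgeR adjusted p 0.00345). With 1 Control library, its spread was taken to equal that of the knockout libraries. The members' median was -0.03, and 30 lay above 0. Scaling to total UMIs gave a median of 0.05 and 7 calls (7.59% of all genes called), and DESeq2 called 6 (5.73% of all genes). The linkers Hist1h1b (813 CPM in Control, 985 and 891 in Ezh2 KO) and Hist1h1e (319 and then 399 and 476) stood at 0.13 ± 0.18 and 0.37 ± 0.19. Hist1h2bl, with the largest baseline change, stood at -0.69 ± 0.73, at 2.5 CPM in Control against 0.826 and 2.54 in Ezh2 KO. In 23 members both Ezh2 KO libraries lay above the Control library, as in 51.5% of all genes, and in 10 below it, as in 25.4%, so that the share above it is below that background. Leaving out an Ezh2 KO library set 1 Ezh2 KO library against 1 Control library, with the spread taken from the 2 Jarid2 KO libraries. The count was 5 without either Ezh2 KO library or without Jarid2 KO 2, 4 without Jarid2 KO 1, and 0 of 62 in male cells alone (11 at an unadjusted p under 0.05), where these fits called 2.2% to 6.47% of all genes. Cells with Xist and without Y-linked UMIs made up 59.5% of the Control library, against 0.0163% and 0.0511% of the Ezh2 KO libraries. Apart from the fit on male cells, the part of that difference was not tested. B-lineage markers were higher in Ezh2 KO in 8 of 8, at a summed 45.4 CPM in Control against 543 and 419. Of the other lists 1 erythroid, 1 stem cell and 1 T-lineage marker were higher, and 1 sort and 1 megakaryocyte marker were lower. Barcodes over the mitochondrial limit moved with genotype, at 43.4% in Control, 25.7% and 27.4% in Ezh2 KO, then 36.6% and 37.4% in Jarid2 KO, and with all deposited barcodes kept (no filter on cells) 1 member was called (5.89% of all genes).

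Jarid2 KO against Control after transplantation gave 0 calls among 63 tested members by edgeR (0.369% of all genes were called), and DESeq2 called 0 (1.21% of all genes). An unadjusted edgeR p under 0.05 was found in 3. The median was -0.34, and 11 members lay above 0. In 35 members both Jarid2 KO libraries lay below the single Control library, as in 24% of all genes, and in 8 above it, as in 37.6%. Hist1h1e stood at 319 CPM in Control against 269.8 and 242 in Jarid2 KO (-0.36 ± 0.19, edgeR adjusted p 0.704). Of the cell type markers 2 of 8 of the B-lineage list were higher in Jarid2 KO, with a median of 2.19 over the list, at a summed 45.4 CPM in Control against 77.7 and 99.2, and their part was not tested. Leaving out a Jarid2 KO library set 1 Jarid2 KO library against 1 Control library, with the spread taken from the 2 Ezh2 KO libraries. Without Jarid2 KO 1, 2 members were called (0.519% of all genes).

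Between the knockouts after transplantation 8 of 63 tested members were lower in Jarid2 KO than in Ezh2 KO and 0 were higher (7.8% of all genes were lower and 4.49% were higher), with a median of -0.37. The count of lower members is not far above that background. Hist3h2ba stood at 11.9 and 11.3 CPM in Ezh2 KO against 4.13 and 3.66 in Jarid2 KO (-1.54 ± 0.14, edgeR adjusted p 0.00173), and Hist1h2bc at 89.7 and 78.6 against 48.3 and 50.4 (-0.74 ± 0.11, edgeR adjusted p 0.00975). Both are H2B genes that were lower in S than in G1 cells. The linker Hist1h1e stood at 399 and 476 against 269.8 and 242 CPM (-0.74 ± 0.16), and Hist1h1a at 142 and 171 against 102 and 102 (-0.58 ± 0.12). The other 4 were H4 genes, Hist2h4 (-0.93 ± 0.19), Hist1h4a (-0.67 ± 0.15), Hist1h4h (-0.62 ± 0.15) and Hist4h4 (-0.56 ± 0.14). In 29 members, these 8 among them, both Jarid2 KO libraries lay below both Ezh2 KO libraries, as in 27.4% of all genes, and in 0 above them, as in 19.7%.

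DESeq2 called 12 lower in that contrast (11.8% of all genes called), and scaling to total UMIs gave 21 calls (14.2% of all genes called). Without Jarid2 KO 1 there were 18 calls (9.97% of all genes), and without Jarid2 KO 2 there were 5, 1 higher and 4 lower (9.29% of all genes). In male cells alone 7 of 62 were called (8.48% of all genes). Cells with Xist and without Y-linked UMIs made up 48.3% and 49.9% of the Jarid2 KO libraries, against 0.0163% and 0.0511% in Ezh2 KO. B-lineage markers moved with the contrast, 8 of 8 lower in Jarid2 KO (summed level 77.7 and 99.2 CPM against 543 and 419 in Ezh2 KO, none at 0). Of the other lists 2 of 4 myeloid markers were higher, 2 of 5 erythroid markers and 1 T-lineage marker were lower, and megakaryocyte markers (1 higher, 2 lower) and stem cell markers (1 higher, 1 lower) moved both ways. With all deposited barcodes kept (no filter on cells) 7 members were called (13.3% of all genes). Without the cells that held B-lineage UMIs 5 members were called (10.2% of all genes), and Hist3h2ba then stood at -1.36 ± 0.14 and Hist1h2bc at -0.75 ± 0.11.

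In S-phase cells of the transplant libraries 7 of 61 tested members were lower in Jarid2 KO than in Ezh2 KO (5.01% of all 13704 genes tested): Hist1h2bc (-1.0 ± 0.11), Hist3h2ba (-2.20 ± 0.30), Hist1h4h (-0.69 ± 0.12), Hist1h1e (-0.83 ± 0.14), Hist1h1a (-0.63 ± 0.14), Hist1h3f (-1.23 ± 0.28) and Hist1h1b (-0.55 ± 0.13). DESeq2 called 9 (6.07% of all genes). B-lineage markers were lower in 8 of 8 in these cells as well, and 2 erythroid markers and 1 megakaryocyte marker were lower too, while 1 myeloid marker was higher and stem cell markers moved both ways (1 higher, 1 lower). The edgeR count was 11 without Ezh2 KO 2 (6.22% of all genes) and 13 without Jarid2 KO 1 (6.34% of all genes). Against Control 1 member was higher in Ezh2 KO (1.64% of all genes), Hist3h2ba (2.24 ± 0.42, edgeR adjusted p 0.0462), and DESeq2 called 1 (2.12% of all genes). In that contrast 8 of 8 B-lineage markers were higher, with a median of 7.26, 1 stem cell marker was higher and 1 megakaryocyte marker was lower. The edgeR adjusted p of Hist3h2ba was 0.0738 without Ezh2 KO 1, and the edgeR count was 4 without Ezh2 KO 2 (2.18% of all genes) and 2 of 61 without either Jarid2 KO library (2.91% to 3.05% of all genes), a share near that background. Jarid2 KO against Control gave 0 (0.0876% of all genes), with 1 unadjusted p under 0.05, and DESeq2 called 0 (0.343% of all genes), while 5 of 8 B-lineage markers were higher, with a median of 4.22.

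Hist3h2ba was the one member that edgeR called in Ezh2 KO against Control in both experiments. The gene encodes an H2B and lies on the plus strand at chr11:58948911-58949372 (GRCm38.p6), with Hist3h2a at chr11:58954685-58955192 on the same strand. Its baseline levels were 8.73 and 5.57 CPM in Control, 23.5 and 14.7 in Ezh2 KO, then 10.2 and 7.32 in Jarid2 KO, and its transplant levels were 2.56, then 11.9 and 11.3, then 4.13 and 3.66. Hist3h2a, an H2A gene, stood at 19.3 and 14.3 CPM in baseline Control against 23.1 and 20.5 in Ezh2 KO (0.43 ± 0.09, edgeR adjusted p 0.0653) and at 10.9 against 16.3 and 25.1 after transplantation (0.83 ± 0.23, edgeR adjusted p 0.115). In Hist3h2a the groups did not overlap in either experiment, but the change did not pass the test. Over the alternatives Hist3h2ba ranged from 0.87 to 1.63 at baseline, called in 14 of 16, and from 1.61 to 2.19 after transplantation, called in 12 of the 13 that tested it. The exceptions were the fit without the sex term (edgeR adjusted p 0.148) and G1 cells alone (0.0619) at baseline, and male cells alone after transplantation (0.0620). With the filter that kept genes with a mean of at least 10 CPM it was not among the genes tested after transplantation, so that filter gave no value there. The transplant fits that left out an Ezh2 KO library set 1 library against 1, with no replicate in either group.

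**Figure D4:**
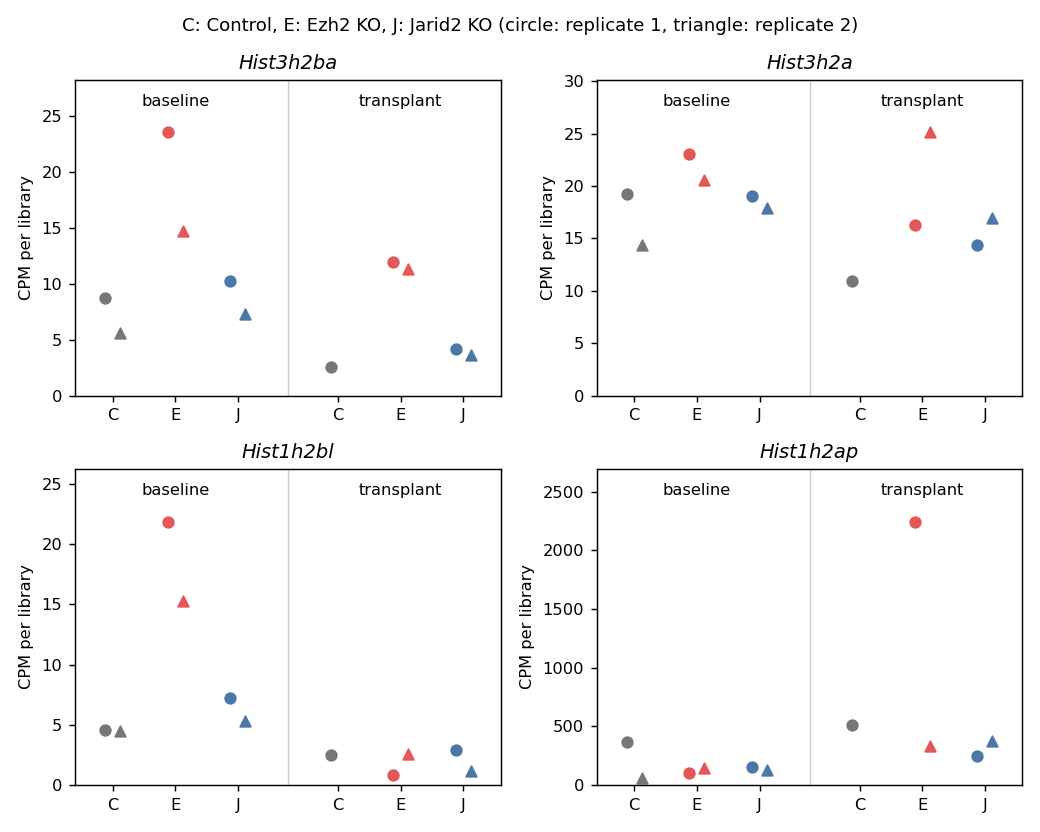
Level of Hist3h2ba, Hist3h2a, Hist1h2bl and Hist1h2ap in every library (CPM, linear axes), by genotype and experiment. Hist3h2ba is highest in the Ezh2 KO libraries of both experiments, Hist1h2bl in those at baseline (21.9 and 15.3 CPM), and 1 transplant Ezh2 KO library holds 2243 CPM of Hist1h2ap.

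Whether the genotype changes differed between the experiments was tested as an interaction over all 11 libraries. By edgeR 0 of 63 members were called in Ezh2 KO against Control (0.75% of all 18927 genes tested were called), 6 had an unadjusted p under 0.05 and DESeq2 called 3 (1.85% of all genes). In Jarid2 KO against Control 0 were called (0.0211% of all genes), 4 had an unadjusted p under 0.05 and DESeq2 called 0 (0.46% of all genes), and in Jarid2 KO against Ezh2 KO 0 were called (4.7% of all genes), 5 had an unadjusted p under 0.05 and DESeq2 called 2 (5.32% of all genes). In Ezh2 KO against Control Hist1h2bl stood at -2.76 ± 0.82 with an edgeR adjusted p of 0.218, so its baseline and transplant changes were not shown to differ. Hist3h2ba stood at 0.65 ± 0.21 (edgeR adjusted p 0.253). The smallest adjusted p of that contrast was that of Hist1h2ac (1.19 ± 0.25, edgeR adjusted p 0.0865), chosen after its values were seen. Its level was 63.8 and 34.6 CPM in baseline Control against 45.7 and 30.7 in Ezh2 KO, and at 60.7 against 98.0 and 143 after transplantation. In Jarid2 KO against Ezh2 KO the interaction of Hist1h2ac was -0.89 ± 0.22 and that of Hist1h2bc -0.61 ± 0.16 (edgeR adjusted p 0.0668 and 0.0700), and 2 members were called without the transplant library Ezh2 KO 2 (2.37% of all genes) and 1 without Jarid2 KO 1 (4.49% of all genes), near or below those backgrounds.

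Libraries of 1 genotype also differed in histone RNA. Of 56 members with at least 50 UMIs in every library, 49 were higher in the male than in the female library of all 3 baseline genotypes, against 23.1% of 11822 genes with that depth. The median male over female log2 ratio was 0.42 for Control, 0.52 for Ezh2 KO and 0.35 for Jarid2 KO. Within a genotype, with 1 library of each sex, sex and library cannot be told apart.

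The transplant libraries differed in another way. Between the 2 libraries of a genotype, the SD over the 56 members of the log2 ratio was 0.97 in Ezh2 KO and 0.71 in Jarid2 KO, against 0.24 and 0.28 over the 11822 genes. A set of 16 members was at least 0.5 lower in Ezh2 KO 1 than in Ezh2 KO 2 and at least 0.5 higher in Jarid2 KO 1 than in Jarid2 KO 2, as were 0.592% of the 11822 genes. The set was chosen after its values were seen and held 7 H2B, 4 H2A, 3 H4 and 2 H3 genes and 0 H1 genes. Hist1h4d stood at 50.2 and 140.5 CPM in the 2 Ezh2 KO libraries and at 155 and 51.8 in the 2 Jarid2 KO libraries, and Hist1h2an at 8.49 and 25.0 and at 36.3 and 6.23. Hist1h2ap ran the other way, at 2243 and 335 and at 245 and 372 CPM. The linker Hist1h1b, at 985 and 891 and at 669.6 and 706 CPM, was not in the set. Median UMIs per cell were 16042 and 11760.0 in Ezh2 KO, then 17608 and 16197.5 in Jarid2 KO, and their part in the pattern was not tested.

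**Figure D5:**
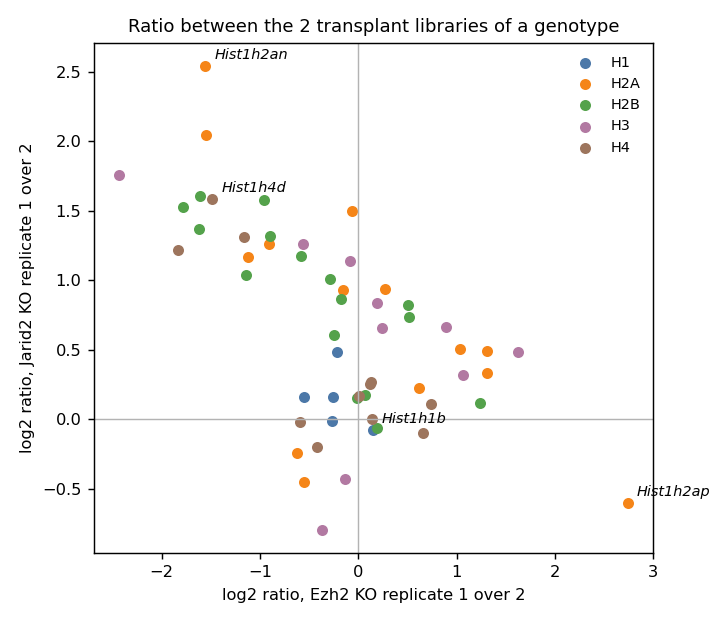
Log2 ratio between the 2 transplant Ezh2 KO libraries (x axis, 1 over 2) and between the 2 transplant Jarid2 KO libraries (y axis, 1 over 2) for the 56 members with at least 50 UMIs in every library, coloured by histone type. The 16 core histone genes of the set lie at the upper left, and Hist1h2ap lies at the lower right.

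Genes that serve the histone supply were counted from 4 lists. Of 4 genes that act in histone gene transcription, 0 were called by edgeR in the 6 genotype comparisons. Of 11 genes of 3′ end processing and decay, Slbp, which encodes the stem-loop binding protein, rose in baseline Ezh2 KO from 103 and 94.5 to 123 and 116 CPM (0.32 ± 0.05, edgeR adjusted p 0.0376), and 0 were called in the other comparisons. In S-phase cells alone Slbp did not pass the test (0.28 ± 0.06, edgeR adjusted p 0.0520). Of 12 chaperone genes Asf1b, which carries H3 and H4, rose in baseline Ezh2 KO from 23.3 and 22.1 to 41.0 and 32.9 CPM (0.75 ± 0.12, edgeR adjusted p 0.0417), and it was higher in S-phase cells alone (0.57 ± 0.08, edgeR adjusted p 0.0220). Beside these counts of 1 of 11 and 1 of 12, 2.92% of all genes, 16 of 53 G2/M-phase genes and 3 of 8 B-lineage markers were higher in that contrast, and the share of G2/M cells was 22.2% and 18.5% in Ezh2 KO against 15.6% and 14.5% in Control. Asf1b (-0.74 ± 0.12) and Nasp (-0.39 ± 0.07) were lower in baseline Jarid2 KO than in Ezh2 KO, where 4.57% of all genes were lower, and 0 chaperone genes were called in the other 4 comparisons.

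The 11 replication-independent variants also differed between phases, with 11 of 11 higher in G2/M than in G1 cells at baseline (a median of 0.98) and after transplantation (0.60). In S cells 9 were higher and 2 lower at baseline, and 8 higher and 3 lower after transplantation. Of the 11, H2afx rose in baseline Ezh2 KO from 184 and 156 to 265 and 239 CPM (0.62 ± 0.07, edgeR adjusted p 0.0294), and H2afv rose as well (0.39 ± 0.05), where 2.92% of all genes were higher. In S-phase cells alone H2afx was higher as well (0.41 ± 0.06, edgeR adjusted p 0.0215), and H2afv did not pass the test (0.30 ± 0.07, edgeR adjusted p 0.0788). H2afx encodes the variant phosphorylated at DNA breaks. In baseline Jarid2 KO 7 of the 11 were lower than in Ezh2 KO, among them H2afx (-0.65 ± 0.07), the linker H1f0 (-0.50 ± 0.06), H2afy2 (-0.79 ± 0.10), H2afz (-0.45 ± 0.06) and H2afv (-0.38 ± 0.05). In that contrast 4.57% of all genes, 16 of 53 G2/M-phase genes and 7 of 8 B-lineage markers were lower. After transplantation 3 were lower in that contrast, H1fx (-0.83 ± 0.13), H2afy2 (-0.64 ± 0.12) and H1f0 (-0.66 ± 0.08), as were 7.8% of all genes, 0 of 53 G2/M-phase genes and 8 of 8 B-lineage markers. In the 3 remaining genotype comparisons 0 of the 11 were called by edgeR.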

How the data were processed

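The authors deposited 1 matrix of UMI counts per library (whole-number counts, not normalized), made with Cell Ranger 7.2.0 at baseline and 6.1.2 after transplantation, per the file headers. The submitters' processing notes name Cell Ranger 3.1.0, Seurat 3.0, Partek and mm10. Because of the difference in version, levels set across the experiments carry that limit.

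Cells with at least 1000 UMIs, at least 500 genes and at most 10% mitochondrial UMIs were kept. Barcodes over that mitochondrial limit were 2.82% to 5.82% at baseline and 25.7% to 43.4% after transplantation. The automatic doublet threshold marked 0 to 116 barcodes a library, so the highest-scoring 0.8% per 1000 barcodes were removed instead. Counts were summed per library, and per library and phase, with phases assigned on cells thinned to 5000 UMIs. Floors cover counting error only. Each SE was computed as the absolute log2 change divided by the square root of the F statistic of edgeR's test, so it includes the spread between libraries.

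Genotypes were compared within each experiment over all its libraries with edgeR 4.0.16 (R 4.3.3, quasi-likelihood test, TMM factors, filterByExpr, Benjamini-Hochberg adjustment over all genes tested, false discovery rate 0.05). The baseline fits had sex as a term. Male and female libraries pair across genotypes by their labels, and the correlations of their male over female log2 ratios between genotypes were 0.456, 0.599 and 0.389 over genes. Phases were compared with library as a term. The alternatives were DESeq2 1.42.0, other scalings and filters, other cell sets and leaving out each library. Chosen after seeing the data were the fits on G1 or G2/M cells alone, without cells with B-lineage UMIs, with total UMIs as the scale, with DESeq2 and a block, without the transplant Control, and without the sex term or with a block in S-phase cells. The scripts were tested on simulated data.

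The members and lists were chosen with earlier results of these data known. Named were every linker gene, the 10 most abundant members, per contrast the called members (the 10 with the smallest adjusted p where there were more), the 5 largest and 5 smallest S-phase changes, and the called genes of the supply lists (at most 5 per contrast). Others were named for their position or are said to be chosen after their values were seen. Analyses used Python 3.11.15 and scanpy 1.11.5.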

Additional observations from a re-analysis of the deposited data

How the results depend on the processing

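Counts of called members are given by comparison. Where neither this section nor the results give the share of all genes called in a fit, its count is not set against a background. Such fits include those without a filter on low counts and those with genes of at least 10 CPM. In baseline Ezh2 KO against Control (18) DESeq2 called 30, edgeR without a filter on low counts 30, without the sex term 0, in G1 cells 0, in G2/M cells 10 and without cells with B-lineage UMIs 2. Leaving out each library gave 3 to 26. In baseline Jarid2 KO against Ezh2 KO (7) they were 15 by DESeq2, 0 without the sex term, 1 in G1 cells, 3 in G2/M cells and 1 without cells with B-lineage UMIs, and 1 to 17 without each library. Baseline Jarid2 KO against Control (0) gave 3 by DESeq2. In baseline S-phase cells Ezh2 KO against Control (22) gave 0 without the sex term and 13 to 32 without each library, Jarid2 KO against Control (0) gave 1 by DESeq2 and 0 to 21, and Jarid2 KO against Ezh2 KO (5) gave 0 without the sex term and 0 to 19.

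In transplant Ezh2 KO against Control (1) there were 6 by DESeq2, 6 without a filter, 0 with genes of at least 10 CPM (4 at an unadjusted p under 0.05 by edgeR), 0 in male cells, 4 in G1 cells, 7 with total UMIs as the scale and 4 to 5 without each knockout library. In transplant Jarid2 KO against Ezh2 KO (8) there were 16 without a filter, 2 with genes of at least 10 CPM, 5 without cells with B-lineage UMIs, 21 with total UMIs as the scale and 5 to 18 without each library. Transplant Jarid2 KO against Control (0) gave 0 to 2. In transplant S-phase cells Ezh2 KO against Control (1) gave 0 with cells near the phase cut left out (11 at an unadjusted p under 0.05 by edgeR) and 1 to 4 without each library, and Jarid2 KO against Ezh2 KO (7) gave 6 to 13. The interaction gave 3 by DESeq2 in Ezh2 KO against Control, and 2 by DESeq2 and 0 to 2 without each library in Jarid2 KO against Ezh2 KO. Fewer genes, cells or samples enter some of these fits, and otherwise the cause was not tested.

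With the replicate number as a block over the 4 transplant knockout libraries edgeR called 12 members lower in Jarid2 KO than in Ezh2 KO, DESeq2 18, and edgeR 10 in S-phase cells. The numbers are only shared, since the log2 ratios of library 1 over 2 in the genotypes correlated at -0.0894 over genes. Without library as a block the phase comparisons gave 59 and 63 calls at baseline (S and G2/M) and 37 and 55 after transplantation. The shares of all genes called in the fits of this paragraph are not given, so the counts are not set against a background.

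Of single-gene values 1019 kept their direction and side of the threshold, 266 no longer passed it and 7 turned direction. Hist1h2bf in baseline Ezh2 KO against Control was -0.0050 in G1 cells. Hist1h1a in baseline Jarid2 KO against Ezh2 KO was 0.084 without cells with B-lineage UMIs. Hist1h2ac in baseline S against G1 cells was -0.075 with cells near the cut left out, -0.0029 without the block and -0.061 to 0.090 without each library, negative without Ezh2 KO 2. After transplantation, in G2/M against G1 cells, Hist3h2a was -0.038 to 0.16 without each library, negative without Jarid2 KO 1, and Hist4h4 was -0.073 to 0.064, positive without Ezh2 KO 1. Near-identical copies and 3′ capture limit what a level of 1 member shows, and 1 transplant Control library limits every comparison with it.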
